A study of Mus musculus with 6 samples.

Results

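The microRNAs described here are the mature products of the hairpins miR-34a, miR-34b and miR-34c, counted on either arm. The table lists them as mmu-miR-34a-5p, mmu-miR-34a-3p, mmu-miR-34b-5p, mmu-miR-34b-3p, mmu-miR-34c-5p and mmu-miR-34c-3p, where mmu stands for the mouse. They were chosen by the name of the hairpin, by a rule that sets no limit on a measured value but was written with earlier results of these data known. It found 6 of the 778 mature miRNAs in the table: the 5p and 3p arms of each hairpin. Small RNA came from mouse primary mesangial cells, contractile cells that hold the capillary loops of the glomerulus together, and both groups were cultured in 25.5 mM glucose with 20% serum between passages 3 and 6. The Control group (3 libraries) received no cytokine, and the TGF-b1 group (3 libraries) received transforming growth factor β1, a cytokine that drives fibrosis, at 10 ng/ml for 72 h. Both groups came from the same source of cells, no genotype was altered, and the sources used here give neither the age nor the strain of the mice. Nothing in the labels says that the 3 libraries of a group were separate cultures, so each p-value measures the spread between libraries, which may be technical.

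The miR-34 genes are known as direct transcriptional targets of p53, the tumour suppressor that responds to DNA damage. Their products repress regulators of the cell cycle and of cell survival, and they are linked to growth arrest, senescence and apoptosis. miR-34b and miR-34c are made from a shared precursor transcript, while miR-34a has its own gene. The related miR-449 miRNAs carry the same seed, the bases that pair with target mRNAs, and together with miR-34b/34c they are best known from multiciliated epithelia. Neither p53 nor its activity was analysed here, so the name of the family as p53-responsive is background and not a result.

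Mature sequences from RefSeq (GRCm38.p6) are shown because the seed, bases 2 to 8 in capitals, decides which arms can share targets. RefSeq gave a sequence for 5 of the 6 miR-34 rows and for 7 of the 9 rows of the miR-34 and miR-449 families, and those of miR-34c-5p and miR-449b are not shown. The 5p arms and their miR-449 relatives are given first.
miR-34a-5p: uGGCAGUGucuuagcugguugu
miR-34b-5p: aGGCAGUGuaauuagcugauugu
miR-449a-5p: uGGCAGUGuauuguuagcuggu
miR-449c-5p: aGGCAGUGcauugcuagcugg
The seed GGCAGUG was found in these 4 miRNAs and in no other of the 581 listed miRNAs that had a RefSeq sequence. The 3p arms follow.
miR-34a-3p: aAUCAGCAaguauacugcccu
miR-34b-3p: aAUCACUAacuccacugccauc
miR-34c-3p: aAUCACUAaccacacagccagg
The 3p arms of miR-34b and miR-34c shared the seed AUCACUA, and they were identical at 17 of 22 positions counted from the 5′ end. The 3p arm of miR-34a had a seed of its own, AUCAGCA, and matched miR-34b-3p at 15 of 21 positions.

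The hairpins lie on different chromosomes in the NCBIM37 annotation. Mir34a is on the plus strand at chr4:149442563-149442664, overlaps no other annotated gene, and is 18810 bp from the nearest coding gene, Gpr157. Mir34c (chr9:50911139-50911215) and Mir34b (chr9:50911667-50911750) are both on the minus strand and together span 612 bp. Neither overlaps another annotated gene, and the nearest coding gene, 4833427G06Rik, is 956 bp from Mir34c. The 3 miR-449 hairpins lie within 1642 bp on chromosome 13, inside an intron of Cdc20b.

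Values are in RPM, a miRNA's reads scaled to 1000000 reads of its library. Totals ran from 16478281 to 17623671 reads in Control and from 17086815 to 20169254 in TGF-b1, so 1 read was worth between 0.0496 and 0.0607 RPM. The 778 rows together accounted for 79.5 to 79.8% of the reads of a Control library and for 71.6 to 73.1% of a TGF-b1 library, and the 408 tested miRNAs had a median log2 change of -0.17. With TMM scaling, a correction for such shifts, that median was -0.03. In bulk RNA, fewer cells of a type and less RNA per cell cannot be told apart. All 4 mesangial or contractile markers were present, with a summed level of 2575 to 2946 RPM in Control and 2603 to 3066 in TGF-b1. Most of that sum was miR-143-3p, and the list had no common direction: miR-145-5p rose (log2 change 0.92), miR-143-3p (0.01) and miR-214-3p (-0.20) did not pass, and miR-199a-3p measured 601.3 ± 57.4 and 484.0 ± 3.86 RPM (SD, n = 3 each; -0.31, limma adjusted p = 0.0219). The call of miR-199a-3p was lost with TMM scaling (-0.097, adjusted p = 0.417) and without Control replicate 1 (0.0686) or TGF-b1 replicate 2 (0.0633), and its sign turned with upper-quartile scaling (0.0068).

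miR-34c-5p made up nearly all of the family. It ranked 18th by mean level among the 778 miRNAs and took 97.3 to 97.7% of all miR-34 reads in the Control libraries and 97.6 to 98.1% in the TGF-b1 libraries. The order of mean levels was the same in both groups: miR-34c-5p, miR-34b-5p, miR-34a-5p, miR-34b-3p, miR-34c-3p and miR-34a-3p. In Control the libraries overlapped between miR-34b-5p and miR-34a-5p and between miR-34b-3p and miR-34c-3p. In TGF-b1 they overlapped only between the latter pair, among neighbours in that order. The plot of levels shows all 6 members.

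**Figure D1:**
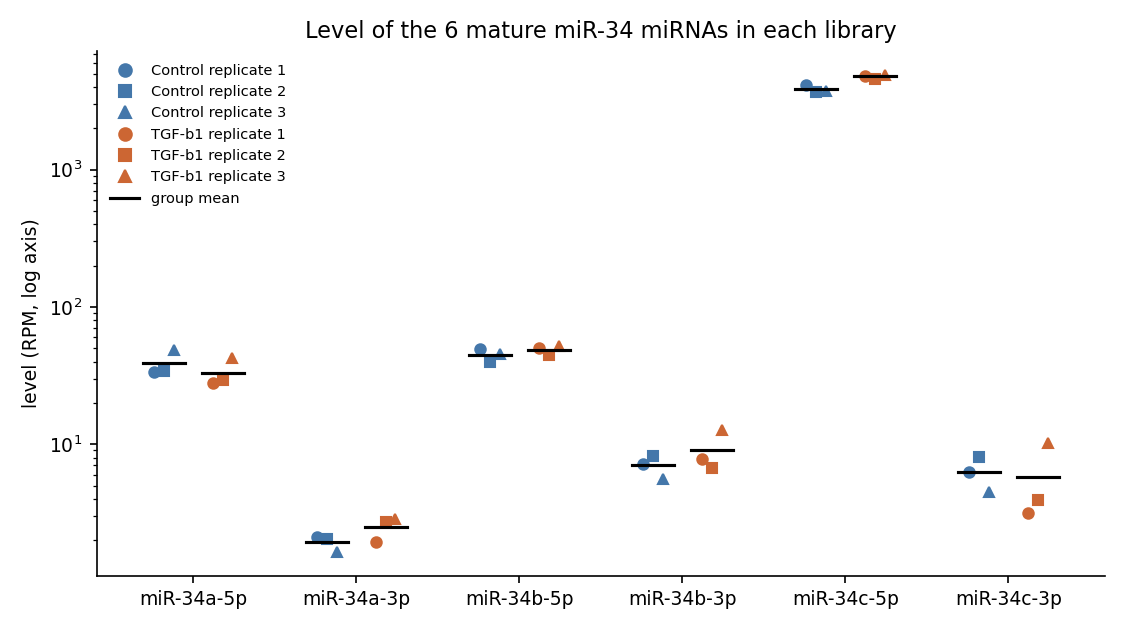
Level of each miR-34 arm in RPM on a log axis, with 1 point per library (3 Control, 3 TGF-b1) and a line at each group mean. miR-34c-5p lies between 3701 and 4915 RPM and the other arms lie between 1.65 and 51.6 RPM.

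One member passed the test across all miRNAs. miR-34c-5p rose in TGF-b1, while the other 5 arms did not pass. At an adjusted p under 0.05 and any fold, 1 of 6 members was higher and 0 were lower, against 49.3% of the 408 tested miRNAs called in either direction (17.4% higher and 31.9% lower). With an absolute log2 change above 1 also required, limma called 0 of 6 members against 12.3% of all tested (4.41% higher and 7.84% lower). On the recovered reads edgeR and DESeq2 also called 0 of 6, beside 86 and 77 of the 408 tested miRNAs. At an unadjusted p under 0.05, limma gave 1 of 6 members and 228 of the 408 tested miRNAs. The median log2 change over the 6 members was 0.19 beside -0.17 over all tested.

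miR-34c-5p measured 4101, 3701 and 3734 RPM in Control replicates 1 to 3. It measured 4828, 4566 and 4915 RPM in TGF-b1 replicates 1 to 3. The groups did not overlap, the lowest TGF-b1 library being above the highest Control library, which was seen in 1 of 6 members and in 56.9% of all tested miRNAs (20.8% higher and 36.0% lower). The means were 3845 ± 222.1 and 4770.0 ± 181.8 RPM (SD, n = 3 each), with a ratio of 1.24. The change on the log2(RPM + 1) scale was 0.31 ± 0.06 (SE; 95% interval 0.17 to 0.46), with a limma adjusted p of 0.00502. The change exceeded that of 80.4% of tested miRNAs, and it was 0.49 above the median of all tested. Between 61736 and 97385 reads stood behind each value, and 2.94% of tested miRNAs had a smaller standard error.

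The other arms of the miR-34b/34c cluster were lower by orders of magnitude and did not pass. miR-34b-5p measured 49.3, 39.4 and 45.1 RPM in Control and 50.3, 44.5 and 51.6 RPM in TGF-b1. Its groups overlapped, and the log2 change was 0.13 ± 0.13 (SE; 95% interval -0.17 to 0.43; limma adjusted p = 0.443). miR-34b-3p measured 7.16, 8.27 and 5.56 RPM in Control and 7.78, 6.70 and 12.7 RPM in TGF-b1. TGF-b1 replicate 3 was the high library, and the log2 change of 0.30 ± 0.24 (SE; 95% interval -0.26 to 0.86; limma adjusted p = 0.335) was 0.055 without it. With upper-quartile scaling miR-34b-3p passed the test, at 0.58 and a limma adjusted p of 0.0429.

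miR-34c-3p, the minor arm of the hairpin that gives miR-34c-5p, measured 6.31, 8.03 and 4.48 RPM in Control and 3.17, 3.91 and 10.2 RPM in TGF-b1. Replicates 1 and 2 of TGF-b1 lay below every Control library and replicate 3 above every one. The log2 change was -0.22 ± 0.37 (SE; 95% interval -1.08 to 0.63; limma adjusted p = 0.650). It was -0.66 without TGF-b1 replicate 3 and 0.056 without TGF-b1 replicate 1, and its sign also turned with upper-quartile scaling, edgeR with TMM and DESeq2. No direction can therefore be given for this arm.

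Neither arm of miR-34a passed. miR-34a-5p, the arm best known as a p53 effector, measured 33.4, 34.2 and 48.6 RPM in Control and 28.1, 29.2 and 42.2 RPM in TGF-b1. Replicate 3 was the highest library in each group, and the groups overlapped. The log2 change was -0.22 ± 0.21 (SE; 95% interval -0.70 to 0.26; limma adjusted p = 0.413), and it was 0.085 with upper-quartile scaling. miR-34a-3p measured 2.12, 2.04 and 1.65 RPM in Control and 1.93, 2.74 and 2.87 RPM in TGF-b1, from 29 to 49 reads a library. Its groups overlapped too, with a log2 change of 0.25 ± 0.16 (SE; 95% interval -0.11 to 0.61; limma adjusted p = 0.222). In 4 of the 5 arms that did not pass, all but miR-34a-5p, the interval held the change of 0.31 seen for miR-34c-5p.

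**Figure D2:**
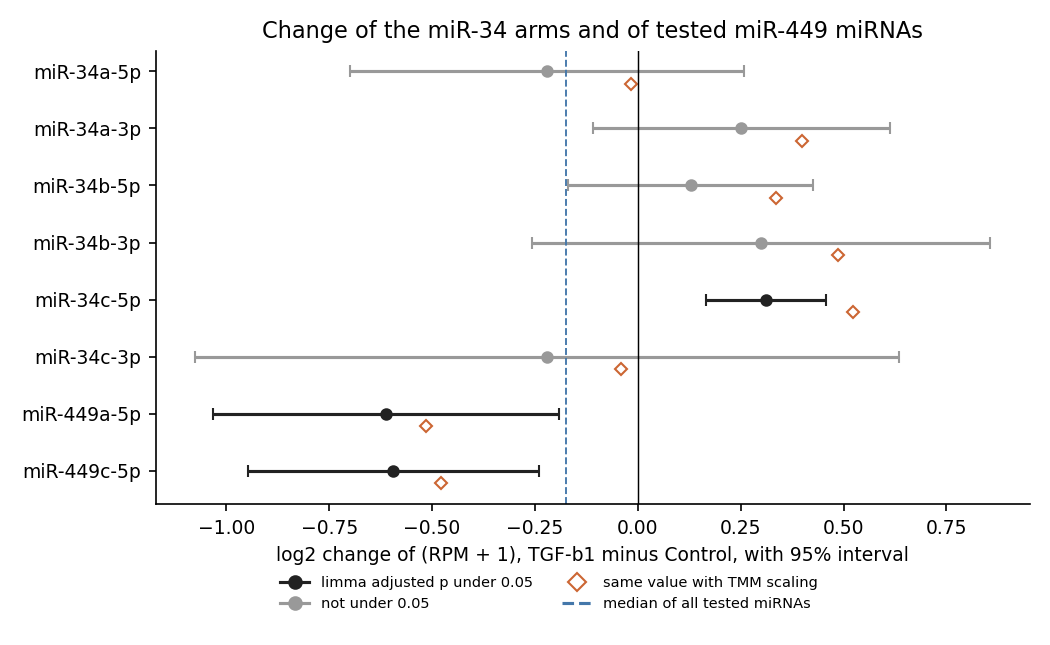
Log2 change (TGF-b1 minus Control, on log2(RPM + 1)) of each miR-34 arm and of the tested miR-449 miRNAs, with the 95% interval of the limma fit (black, adjusted p under 0.05; grey, not), diamonds for TMM scaling and a dashed line at the median of all tested miRNAs (-0.17). The interval of miR-34c-5p (0.17 to 0.46) lies above 0, those of the other 5 miR-34 arms include 0, and those of miR-449a-5p and miR-449c-5p lie below it.

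The design also sets miR-34a against the miR-34b/34c cluster within each library, which cancels any scaling shared by all miRNAs of a library. The summed cluster was 117.3, 103.6 and 75.5 times the summed miR-34a hairpin in Control and 163.0, 144.7 and 110.7 times in TGF-b1. TGF-b1 replicate 3 lay below Control replicate 1, so the groups overlapped. On the log2(RPM + 1) scale, miR-34a minus the cluster went from -6.57 ± 0.32 to -7.06 ± 0.28 (SD, n = 3 each), a difference of -0.50 (exact two-sided permutation p = 0.200; 0.280 after Benjamini-Hochberg adjustment over the 7 per-library measures). The smallest p that 3 against 3 libraries allow is 0.1, so none of these measures could pass 0.05. The difference was -0.32 without Control replicate 3 and -0.65 without TGF-b1 replicate 3.

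The level of the cluster and that of the miR-34a hairpin can be set side by side. In Control the cluster measured 3903 ± 226 RPM and under TGF-b1 4834 ± 191 RPM (SD, n = 3 each), without overlap, which is nearly the level of miR-34c-5p alone. The miR-34a hairpin measured 40.7 ± 8.28 and 35.7 ± 8.20 RPM, with overlap. The summed family went from 3944 ± 222 to 4869 ± 196 RPM (SD, n = 3 each), higher in every TGF-b1 library than in any Control library (exact two-sided permutation p = 0.1, adjusted 0.233).

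Within the cluster, ratios between products of the shared precursor were compared arm by arm. These ratios were not planned in advance, and they are counted among the 7 per-library measures. miR-34c-5p was 83.1, 93.8 and 82.8 times miR-34b-5p in Control and 95.9, 102.6 and 95.3 times in TGF-b1. The groups did not overlap, and the log2 difference was 0.18 (exact two-sided permutation p = 0.1, adjusted 0.233). For the 3p arms, miR-34c-3p over miR-34b-3p was 0.881, 0.971 and 0.806 in Control and 0.408, 0.583 and 0.802 in TGF-b1. These did not overlap either, by a margin of 0.806 against 0.802 in the nearest libraries, and the log2 difference was -0.52 (exact two-sided permutation p = 0.1, adjusted 0.233). The 5p ratio of the pair was thus higher and the 3p ratio lower in TGF-b1, each at the smallest p the design can give, which does not pass 0.05. How reads that match both miRNAs were counted is not given in the sources used here.

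**Figure D3:**
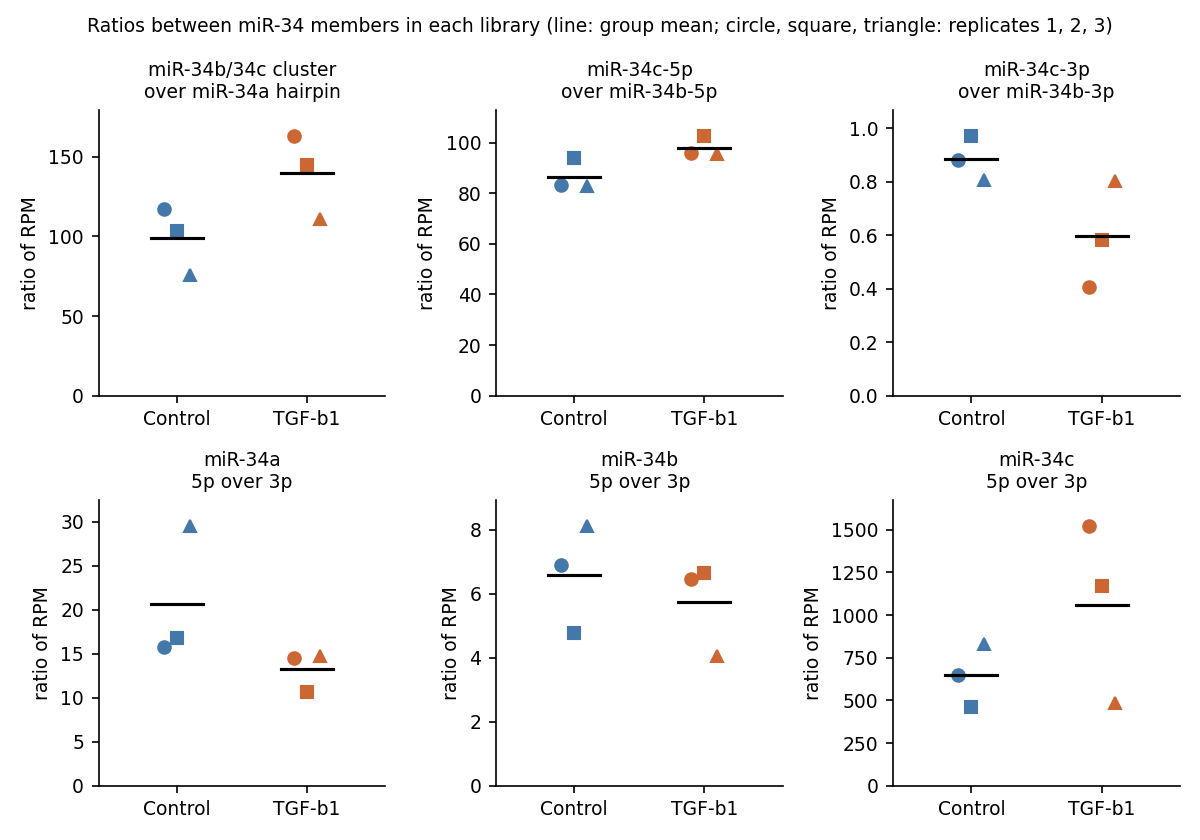
Ratios between miR-34 members in each library, as ratios of RPM on linear axes starting at 0, with a line at each group mean and marker shapes for replicates 1 to 3. The cluster over miR-34a and the 5p over 3p ratios of miR-34b and miR-34c overlap between the groups, and the remaining 3 ratios do not.

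The 5p arm exceeded the 3p arm for all 3 hairpins in all 6 libraries, by very different factors. The 5p over 3p ratio of miR-34c was 649.8, 460.7 and 833.0 in Control and 1522, 1169 and 482.7 in TGF-b1. That of miR-34b was 6.89, 4.77 and 8.11 in Control and 6.47, 6.64 and 4.06 in TGF-b1, so hairpins of the same transcript differed in arm use far more than the groups did. On the log2(RPM + 1) scale the group differences were 0.53 for miR-34c (exact two-sided permutation p = 0.300, adjusted 0.350) and -0.17 for miR-34b (p = 0.500, adjusted 0.500). Without TGF-b1 replicate 3 they were 0.945 and 0.034.

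For miR-34a the 5p over 3p ratio was 15.7, 16.8 and 29.5 in Control and 14.5, 10.7 and 14.7 in TGF-b1. As plain ratios the groups did not overlap. On the log2(RPM + 1) scale they did, with a difference of -0.47 (exact two-sided permutation p = 0.200, adjusted 0.280), and without a pseudocount it was -0.59 (p = 0.1). Without Control replicate 3, the library with the ratio of 29.5, it was -0.23.

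The miR-449 miRNAs were rare, and 2 of the 3 listed rows could be tested. Both passed lower at any fold and did not overlap between groups, beside 31.9% and 36.0% of all tested miRNAs. miR-449c-5p measured 2.003, 1.98 and 1.42 RPM in Control and 1.14, 0.726 and 0.702 RPM in TGF-b1, from 12 to 33 reads. Its log2 change was -0.59 ± 0.15 (SE; limma adjusted p = 0.0134), and the ratio of means was 0.476. miR-449a-5p measured 1.52, 1.56 and 1.08 RPM in Control and 0.992, 0.335 and 0.410 RPM in TGF-b1, from 6 to 26 reads. Its log2 change was -0.61 ± 0.18 (SE; limma adjusted p = 0.0234), and the ratio of means was 0.418. However, miR-449a-5p reached the low-count limit in 1 TGF-b1 library and in all 3 of Control. It therefore entered the test through the group where it was higher, and its call supports no direction for the family.

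Both calls depended on single libraries and on the tool. DESeq2 gave adjusted p-values of 0.192 for miR-449c-5p and 0.190 for miR-449a-5p, and edgeR with TMM gave 0.0501 for miR-449a-5p. Without Control replicate 1 both were lost, at limma adjusted p-values of 0.0528 and 0.0776. miR-449a-5p was also lost without Control replicate 2 (0.0820), TGF-b1 replicate 2 (0.0798) or TGF-b1 replicate 3 (0.0718). miR-449b, whose groups overlapped, had 1, 0 and 2 reads in Control and 0 in each TGF-b1 library, which allows up to 0.149 to 0.176 RPM there, for counting error only. The summed miR-34 level was 1239 ± 207 times the summed miR-449 level in Control and 3741 ± 1243 times in TGF-b1 (SD, n = 3 each).

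The sum of the epithelial markers was lower in TGF-b1, while the endothelial, blood cell and skeletal muscle sums overlapped between groups. The summed level of 7 epithelial miRNAs was 22.2 to 25.6 RPM in Control and 1.67 to 2.58 in TGF-b1, and 4 of them (miR-200c-3p, miR-141-3p, miR-203-3p and miR-205-5p) had at most 3 reads in every library. Nearly all of the sum was miR-200a-3p, miR-200b-3p and miR-429-3p. In TGF-b1 miR-429-3p lay at 0.28 to 0.30 RPM, under the low-count limit of 0.576 RPM. So did miR-200b-3p in TGF-b1 replicates 2 and 3 (0.558 and 0.351 RPM). Both therefore passed the filter through their level in Control. The miR-449 miRNAs are themselves the multiciliated list, at 2.61 to 3.58 and 1.06 to 2.13 RPM. Endothelial markers summed to at most 0.297 RPM and blood cell markers to at most 0.659 RPM in every library, with no row for miR-142-3p and miR-223-3p. The skeletal muscle list summed to 3440 to 3646 RPM in Control and 3285 to 3465 in TGF-b1, with overlap, and was nearly all miR-206-3p, while miR-133a-3p had at most 3 reads in every library. The part of these cell types in the miR-34 and miR-449 values was not tested.

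Among 12 other miRNAs linked to p53, as its targets or as miRNAs whose processing it aids, 9 could be tested. 3 rose, 3 fell and 3 did not pass at any fold, 0 passed the fold threshold as well, and 7 did not overlap between groups, beside 49.3%, 12.3% and 56.9% of all tested. At an unadjusted p under 0.05, limma gave 7 of the 9 and 228 of all 408. The median log2 change was 0.17. miR-141-3p, miR-200c-3p and miR-203-3p were below the low-count limit. That 0 members passed the fold threshold depended on the processing. With TMM scaling miR-145-5p passed it (1.13, limma adjusted p = 0.000129), beside 53 calls over all tested miRNAs. It also passed by DESeq2 (1.14, adjusted p = 1.08e-11, beside 77 calls) and by edgeR with TMM (1.07, adjusted p = 0.000213, beside 86). So it did with median-of-ratios (1.13), upper-quartile (1.24) and listed-row scaling (1.06), and without Control replicate 2 (1.04). miR-15a-5p passed the threshold with a pseudocount of 0.1 (-1.03, limma adjusted p = 0.00368), beside 86 calls. With edgeR and library totals miR-15a-5p had -1.06 (adjusted p = 0.00359), also beside 86. miR-15a-5p passed as well without Control replicate 2 or 3, or TGF-b1 replicate 2 or 3 (-1.01 to -1.11).

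miR-145-5p, a repressor of Myc that is also on the contractile list, averaged 127.4 ± 26.7 RPM without and 238.6 ± 7.91 RPM with the cytokine (SD over 3 libraries, here and for the next miRNAs), and it rose by 0.92 on the log2 scale (limma adjusted p = 0.00235). miR-194-5p rose from 2.29 ± 0.311 to 3.79 ± 0.618 RPM, by 0.54 on the log2 scale (limma adjusted p = 0.0186), and did not pass without Control replicate 1 (0.0636), Control replicate 3 (0.0638) or TGF-b1 replicate 3 (0.0575). miR-192-5p, made from a shared transcript with it and abundant in kidney tubules, rose from 296.9 ± 6.99 to 349.6 ± 11.8 RPM, by 0.23 (limma adjusted p = 0.0396). That call was lost on leaving out any 1 of the 6 libraries, at limma adjusted p-values of 0.0622 to 0.110. The list of 4 kidney tubule markers, which holds both, summed to 294 to 309 RPM in Control and 343 to 366 in TGF-b1, nearly all of it miR-192-5p. Another of the 4, miR-204-5p, was lower in TGF-b1 without overlap, at 1.37 ± 0.398 and 0.966 ± 0.112 RPM, and did not pass (limma adjusted p = 0.196). Its nearest libraries were at 1.08 RPM in Control and 1.06 RPM in TGF-b1, and 36.0% of all tested miRNAs were lower without overlap. The part of tubule cells was not tested.

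miR-15a-5p and miR-16-5p, a clustered pair that represses Bcl2 and G1 cyclins, both fell. miR-15a-5p had 29.2 ± 7.03 RPM in Control against 14.0 ± 1.38 in TGF-b1, for a log2 change of -0.99 (limma adjusted p = 0.00348). miR-16-5p went from 187.0 ± 7.53 to 112.0 ± 20.8 RPM, a log2 change of -0.75 (limma adjusted p = 0.00345), and of -0.44 with upper-quartile scaling (0.0694). miR-107-3p went from 2435 ± 125.8 to 1913 ± 184 RPM, a log2 change of -0.35 (limma adjusted p = 0.00998), but with TMM scaling the change was -0.14 and the call was lost (adjusted p = 0.193). With TMM scaling the list held 4 higher and 2 lower members, because miR-22-3p then passed, at 0.66 (limma adjusted p = 0.00243) in place of 0.45 (0.0516). The list therefore had no common direction.

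**Figure D4:**
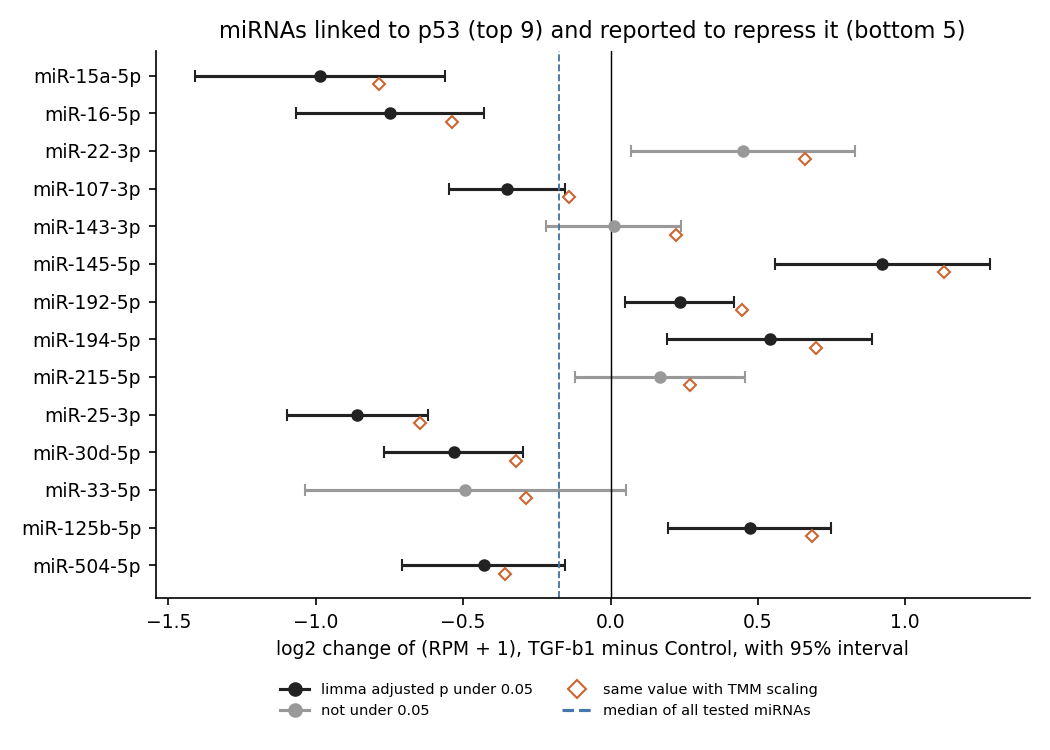
Log2 change (TGF-b1 minus Control, on log2(RPM + 1)) of the 9 tested miRNAs linked to p53 (top) and the 5 reported to repress p53 (bottom), with 95% intervals of the limma fit, black where the adjusted p is under 0.05 and grey otherwise, diamonds for TMM scaling and a dashed line at the median of all tested miRNAs. Members higher and lower in TGF-b1 are mixed in both p53 lists, from -0.99 (miR-15a-5p) to 0.92 (miR-145-5p).

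Of 6 miRNAs reported to repress p53 itself, 5 could be tested and miR-380-5p was below the limit. 1 passed higher and 3 lower at any fold, beside 17.4% and 31.9% of all tested miRNAs, with a median log2 change of -0.49 beside -0.17. One of the 3, miR-504-5p, was tested only because of its level in Control. miR-125b-5p rose by 0.47 on the log2 scale, with 852.8 ± 82.7 RPM in Control and 1188 ± 171 in TGF-b1 (limma adjusted p = 0.0126). miR-25-3p fell from 1388 ± 81.5 to 768.6 ± 99.8 RPM, with a log2 change of -0.86 (limma adjusted p = 0.000522). miR-30d-5p fell from 1357 ± 164 to 934.8 ± 57.8 RPM, with a log2 change of -0.53 (limma adjusted p = 0.00404), and did not pass with upper-quartile scaling (-0.22, adjusted p = 0.346) or DESeq2 (-0.32, adjusted p = 0.0647). miR-504-5p, with 5 to 16 reads a library, went from 0.770 ± 0.174 to 0.311 ± 0.0555 RPM, a ratio of means of 0.404. Its change on the log2(RPM + 1) scale was -0.43 (limma adjusted p = 0.0186), and with a pseudocount of 0.1 it was -1.07. miR-504-5p reached the low-count limit in 3 Control and 0 TGF-b1 libraries, and it did not pass without Control replicate 1 (0.0661), with upper-quartile scaling (0.102) or by DESeq2 (0.277).

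The miRNAs whose levels followed each member most closely were ranked by Pearson r of log2(RPM + 1) over the 6 libraries, which share 1 treatment contrast, and r is given as a description. For miR-34c-5p they were miR-96-5p (r = 0.976), miR-3057-5p (0.972) and miR-224-5p (0.971), and 34 tested miRNAs had r above 0.9. All 3 were higher in TGF-b1, miR-96-5p at 10.8 and 27.7 RPM, miR-3057-5p at 2.09 and 3.20 RPM and miR-224-5p at 12.4 and 30.1 RPM as the Control and TGF-b1 means. The call of miR-3057-5p (limma adjusted p = 0.0362) was lost by DESeq2 (0.0629) and without a filter (0.0949). It was also lost without any 1 library other than TGF-b1 replicate 2 (limma adjusted p-values of 0.0530 to 0.105). For miR-34b-5p the leading miRNAs were miR-3057-5p (0.829), miR-425-5p (0.776) and miR-9-5p (0.776), and for miR-34a-5p miR-19a-3p (0.837), miR-669d-5p (0.762) and miR-100-3p (0.73).

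The 3p arms had other partners. For miR-34b-3p they were miR-350-3p (r = 0.968), miR-1839-3p (0.95) and miR-31-3p (0.947). For miR-34c-3p they were miR-669a-3p and miR-669o-3p (0.984 each, with identical values in the table) and miR-99b-5p (0.98). For miR-34a-3p they were miR-1249-5p (0.978), miR-1966 (0.951) and miR-210-5p (0.944). No member was among the 3 most like another. Between members, r was 0.735 for miR-34c-5p with miR-34b-5p and 0.716 for miR-34b-3p with miR-34c-3p, but -0.387 for miR-34c-5p with miR-34a-5p and -0.109 for the 2 arms of miR-34c.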

How the data were processed

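The authors removed reads under 18 nt, compared the rest with miRBase 17 using Bowtie, and deposited 1 table of 778 miRNAs. The deposited values, named TPM by the authors, are RPM: reads divided by a library total, of which the rows hold only a share. Whole reads were recovered for 100% of values (tolerance 0.002 reads). How reads matching several miRNAs were counted is not given in the sources used here. limma 3.58.1 (R 4.3.3, trended prior) was fitted to log2(RPM + 1) over the 408 miRNAs kept by filterByExpr of edgeR 4.0.16 (minimum count 10), with Benjamini-Hochberg adjustment. As the values are normalized, edgeR and DESeq2 1.42.0 on recovered reads were alternatives. Per-library measures used exact two-sided permutation tests (scipy 1.17.1). Libraries of a group differed beyond sampling noise (chi-square per degree of freedom 43.2 to 137.9). When 200 of 403 simulated miRNAs differed by a log2 change of 2, the recovered share was 82% with limma, 95% with edgeR and 94.5% with DESeq2, at 0 false calls. Only results that also met the fold threshold were counted in this simulation, and no other size of change was simulated. It therefore does not show how reliable passes at any fold are, such as that of miR-34c-5p (0.31).

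Members and lists were chosen with earlier results of these data known. Named are the 6 arms, the miR-449 rows, up to 3 passing miRNAs a direction in each p53 list and the 3 most like each arm. miR-22-3p, the members of marker lists and miRNAs absent or below the limit were named after their values were seen. Positions of hairpins were read from GENCODE vM1 (NCBIM37), the build the study used for its RNA reads. The alternatives were other scalings, filters, pseudocounts and tools, a replicate block and each library left out.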

Additional observations from a re-analysis of the deposited data

How the results depend on the processing

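miR-34c-5p passed under every alternative run, with log2 changes of 0.28 to 0.63 and adjusted p-values of 0.000476 to 0.0238, and 0 members passed the fold threshold under any, also on leaving out each library (0). Members passing at any fold numbered 1, or 2 with upper-quartile scaling, and 1 without any 1 library. The sign turned for miR-34a-5p with upper-quartile scaling (0.085), for miR-34c-3p with upper-quartile scaling (0.053), edgeR with TMM (0.019) and DESeq2 (0.082) and, over the libraries left out, between -0.66 and 0.056 (without TGF-b1 replicate 1), and for miR-143-3p, which did not pass, without Control replicate 3 (-0.039) or TGF-b1 replicate 1 (-0.091; highest 0.072). It also turned with upper-quartile scaling for miR-199a-3p (0.0068) and miR-214-3p (0.082), and miR-214-3p ranged from -0.40 to 0.0028 on leaving out each library (highest without Control replicate 2). The causes were not tested. The miR-34b arm ratio ranged from -0.37 to 0.034 on leaving out each library, turning without TGF-b1 replicate 3.

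Over all tested miRNAs there were 50 calls (18 higher, 32 lower), 86 with a pseudocount of 0.1, 17 with a pseudocount of 10 (2 higher, 15 lower), 86 by edgeR with TMM (45 higher, 41 lower), 86 by edgeR with library totals and 77 by DESeq2 (46 higher, 31 lower), and 45 to 57 without 1 library. The split was 31 to 22 with TMM, 30 to 22 with median-of-ratios and 35 to 19 with upper-quartile scaling. Scaled to the listed rows it was 29 to 28 as reads per 1000000 listed reads and 24 to 24 with the mean library total kept, a version added after results were seen, including an earlier description of the data. The summed family differed by 1784 and 1353 RPM on those scales, against 925.5. miRNAs reported to repress p53 passed in 4 cases, 2 with upper-quartile scaling and 2 by DESeq2. The miR-449 rows passed in 2 cases, 0 with a mean of at least 50 reads (neither was tested there), 1 by edgeR with TMM and 0 by DESeq2, and 0 to 2 without 1 library.

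Replicate numbers did not pair the libraries (correlations of deviations -0.08, -0.21 and -0.34). With the replicate block there were 50 calls and 1 member passing at any fold, miR-34c-5p (0.31, adjusted p = 0.0108), while miR-192-5p, miR-194-5p, miR-504-5p and miR-3057-5p were lost and miR-33-5p passed. The 3p arms rest on 29 to 217 reads a library, and their intervals do not exclude changes of the size seen for miR-34c-5p.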
